A study of Mus musculus with 6 samples.

Results

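The smooth muscle contractile genes analysed here are 10 genes whose products build or control the contractile apparatus of smooth muscle and which mark fibroblasts that have become myofibroblasts: *Acta2*, *Tagln*, *Cnn1*, *Cnn2*, *Myl9*, *Tpm1*, *Tpm2*, *Actg2*, *Myh11* and *Cald1*. They were chosen by symbol, and all 10 were found among the 28987 genes of the deposited table. After a filter on low values 9 of them were tested, together with 15109 genes in all, and *Cnn1* was the member left out. In smooth muscle, force comes from myosin filaments that pull on actin filaments, and the step is switched on by phosphorylation of the myosin regulatory light chain and modulated by calponins, caldesmon and tropomyosins lying along the actin. A fibroblast of an injured heart that turns into a myofibroblast takes up part of this apparatus, above all smooth muscle α-actin in stress fibers, and most of these genes are targets of serum response factor (SRF) and its cofactors. The myosin heavy chain *Myh11*, by contrast, is a classical marker of mature smooth muscle.

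The RNA came from EGFP+ cells that were sorted out of cardiac ventricles 4 weeks after the aorta had been banded (transverse aortic constriction, TAC), which loads the left ventricle with pressure. All 6 libraries came from mice with MerCreMer, a tamoxifen-activated Cre recombinase, knocked into the *Postn* locus and with the Cre-dependent *R26eGFP* reporter, and all mice received tamoxifen by injection and in chow. The 3 libraries labelled control have no floxed *Hsp47* allele in their labels, and the 3 libraries labelled Hsp47-deleted carried *Hsp47flox/flox*. The labels give an age of 8 to 10 weeks at surgery. Cre was driven by *Postn*, so the sorted cells are those that had turned *Postn* on and their descendants, and each library is a bulk of such cells, in which fewer cells of a type and less RNA per cell cannot be told apart. The labels do not say that each library came from a separate mouse, so the p-values measure the spread between these libraries only. The comparison asked whether loss of *Hsp47*, the collagen chaperone encoded by *Serpinh1*, changed the contractile program of these cells.

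By the labels, control replicates 3 and 4 carried an earlier run number, called the first run here. Control replicate 2 shared the second run with all 3 Hsp47-deleted libraries. The labels do not say which steps a run number covers, and sequencing run below means this number only. *Serpinh1* RNA was not lower in the Hsp47-deleted libraries when all controls were pooled. Values of a gene are given in a fixed order, for the controls replicates 3, 4 and 2 and for the Hsp47-deleted libraries replicates 1, 2 and 3. On the log2 scale *Serpinh1* read 6.28, 6.10 and 7.60 in the controls and 6.87, 6.67 and 6.66 with Hsp47 deleted by label. The group difference was 0.07 with a standard error of 0.43, while within the second run the mean of the Hsp47-deleted libraries lay 0.87 below control replicate 2. Each value is RNA of a whole gene and does not show which exons were read. By Western blot the paper found the Hsp47 protein efficiently deleted in sorted EGFP+ cells of this genotype. Groups are named as labelled throughout. Values are log2(value + 1) as deposited, the linear unit is not named, and the linear values summed to between 690499 and 855404 per library. Since these are not counts, the depth behind each value is unknown. Differences were tested with limma on all tested genes and adjusted by the Benjamini-Hochberg method (BH), and a gene was called where its adjusted p was under 0.05. The median difference over all tested genes was 0.35, above 0, and control replicate 2 correlated more closely with the Hsp47-deleted libraries (Pearson's r across genes from 0.87 to 0.94) than with the other controls (0.76 to 0.83), a description across genes that are not independent.

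The members lie on 7 chromosomes in the GRCm38 assembly with the GENCODE M21 annotation. *Acta2*, smooth muscle α-actin, is at chr19:34241090-34255590 on the minus strand. *Actg2*, the enteric smooth muscle γ-actin, is at chr6:83512905-83536265 on the minus strand. *Tagln*, which encodes the actin-bundling protein SM22α, is at chr9:45929619-45936058 on the minus strand. The calponin genes *Cnn1* and *Cnn2* are at chr9:22099216-22109630 and chr10:79988584-79996062, both on the plus strand. *Myl9*, a myosin regulatory light chain, is at chr2:156775420-156781658 on the plus strand, and *Myh11* is at chr16:14194535-14291372 on the minus strand. The tropomyosin genes *Tpm1* and *Tpm2* are at chr9:67022590-67049406 and chr4:43514711-43523765 on the minus strand, and *Cald1*, the caldesmon gene, is at chr6:34598500-34775473 on the plus strand.

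Promoter windows of 250 bases before to 50 after the start were taken from RefSeq (GRCm38.p6), in which 7 of the 10 members had an entry. *Tagln*, *Actg2* and *Myh11* had none. The CArG box, the 10-base element that SRF binds, was searched on both strands. It was found in 2 of the 7 members, against 1.63% of the 32851 promoters of the table. A form with 1 G or C allowed in its A/T core was found in 2 of the 7, against 8.5% of all promoters. The MCAT element CATTCC, which TEAD factors bind, was searched on both strands too and was found in 3 of the 7 (*Acta2*, *Tpm1* and *Cald1*), against 14.7% of all promoters. The sequences below are those with a CArG box or its looser form, shown 5′ to 3′ on the strand of the gene with the matches in capitals. They come from *Myl9*, *Cnn2* and *Acta2*, the 3 with such a match among the 7 members searched. For *Myl9* and *Cnn2* the bases upstream of the annotated gene are printed (chr2:156775214-156775419, plus strand, and chr10:79988350-79988583, plus strand), and for *Acta2* 2 stretches of 30 bases, which GENCODE places inside the annotated gene (chr19:34255438-34255467 and chr19:34255388-34255417, minus strand).
Myl9: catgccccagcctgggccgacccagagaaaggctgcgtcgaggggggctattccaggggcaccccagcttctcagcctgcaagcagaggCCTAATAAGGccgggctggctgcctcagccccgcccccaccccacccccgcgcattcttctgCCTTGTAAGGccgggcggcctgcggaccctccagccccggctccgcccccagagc
Cnn2: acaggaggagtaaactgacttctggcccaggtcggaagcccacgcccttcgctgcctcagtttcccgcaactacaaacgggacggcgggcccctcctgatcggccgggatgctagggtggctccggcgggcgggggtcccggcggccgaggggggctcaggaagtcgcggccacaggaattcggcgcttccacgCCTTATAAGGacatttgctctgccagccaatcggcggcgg
Acta2, first stretch: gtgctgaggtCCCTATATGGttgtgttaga
Acta2, second stretch: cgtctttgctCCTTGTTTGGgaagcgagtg
The first capital stretch of *Myl9* and that of *Cnn2* are CArG boxes, which begin at positions -161 and -56 from the RefSeq start. The second stretch of *Myl9*, at -99, and both of *Acta2*, at -84 and -34, hold the looser form. A match is a description of the letters and not evidence of a site in use.

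**Figure D1:**
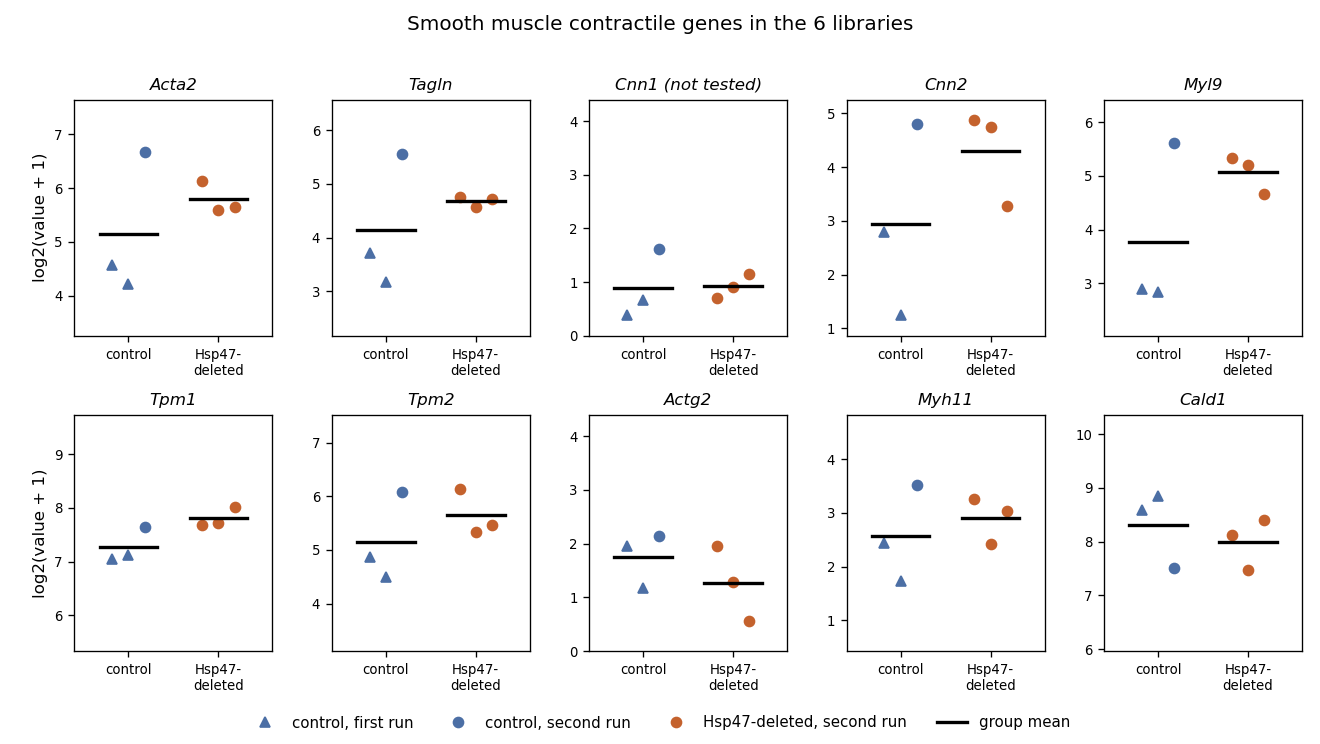
Log2(value + 1) of the 10 smooth muscle contractile genes in each library, with triangles for the first sequencing run, circles for the second and bars for the group means (n = 3). Every panel spans the same number of log2 units, and for 8 of the 9 tested members control replicate 2 sits above both controls of the first run.

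None of the 9 tested members was called between the groups, where 37 of the 15109 tested genes, 0.245%, were. At an unadjusted p under 0.05 the count of members was 0 as well, while 14.5% of all tested genes were higher in the Hsp47-deleted libraries at that threshold. Of the 9 members 7 had a difference above 0 and 2 (*Actg2* and *Cald1*) a difference below 0, and 74.5% of all tested genes had one above 0. The median difference of the members was 0.53, against 0.35 over all tested genes. After each library was centred on its median, or after quantile normalization, the median of all tested genes moved to -0.06 or -0.05, and 6 of the 9 members, without *Myh11*, stayed above 0. The groups were apart, with all Hsp47-deleted libraries above all controls, for 1 of the 9 members, *Tpm1*, against 18.3% of all tested genes.

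*Acta2*, the actin that defines the myofibroblast, read 4.56, 4.22 and 6.68 in the controls and 6.13, 5.60 and 5.65 in the Hsp47-deleted libraries. The highest and the lowest libraries were both controls, and the 3 Hsp47-deleted libraries fell between them. The means were 5.15 ± 1.33 in control and 5.79 ± 0.29 in Hsp47-deleted (SD, n = 3 each), and the difference was 0.64 with a 95% interval from -0.79 to 2.07 (limma, BH-adjusted p = 0.629). An increase of several fold and a moderate decrease are thus both inside the interval. *Actg2*, the second smooth muscle actin, was low throughout, at 1.96, 1.17 and 2.14 in the controls and 1.95, 1.29 and 0.56 in the Hsp47-deleted libraries. Its groups overlapped and its difference was -0.49 (interval -1.57 to 0.59, adjusted p = 0.620 by limma).

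Of the proteins that lie along the actin filament, SM22α, encoded by *Tagln*, gave the pattern closest to that of *Acta2*. *Tagln* read 3.71, 3.18 and 5.56 in the controls and 4.76, 4.57 and 4.71 in the Hsp47-deleted libraries. Again the controls lay on either side of the Hsp47-deleted libraries, whose own SD was only 0.10 against 1.25 in the controls. The difference was 0.53 (interval -0.81 to 1.88, adjusted p = 0.669 by limma). Values of *Tagln* carry an added uncertainty, because 62.2% of its 31-base words also occur in transcripts of other genes. Most of that overlap, 58.2%, was with the antisense gene *Gm48529*, which has no row in the table, and the amplification and tagmentation kits named in the labels do not mark strand, so reads of the pair cannot be told apart.

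The calponins bind actin and restrain the myosin ATPase. *Cnn1*, the smooth muscle form, did not reach the filter, with 0.39, 0.66 and 1.61 in the controls and 0.70, 0.91 and 1.15 in the Hsp47-deleted libraries. The group means were 0.89 ± 0.64 and 0.92 ± 0.23 (SD, n = 3 each), close to the floor of the scale. *Cnn2*, the form shared by smooth muscle and nonmuscle cells, read 2.79, 1.24 and 4.80 in the controls and 4.88, 4.76 and 3.27 in the Hsp47-deleted libraries. Its difference of 1.36 was the largest among the members, but so was its standard error of 0.87, and the interval ran from -0.65 to 3.36 (adjusted p = 0.456 by limma). Hsp47-deleted replicate 3 lay well under the other libraries of its group and closer to control replicate 3.

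*Cald1* encodes caldesmon, which binds both actin and myosin, and it was the one tested member for which control replicate 2 did not lie above both other controls. It read 8.58, 8.85 and 7.52 in the controls and 8.12, 7.48 and 8.40 in the Hsp47-deleted libraries. Control replicate 2 was the low control here and the groups overlapped, with a difference of -0.32 (interval -1.33 to 0.70, adjusted p = 0.742 by limma). *Cald1* has 18 annotated transcripts, of up to 4777 bases, that include the long smooth muscle and the shorter nonmuscle forms. The table holds 1 value per gene, so the forms cannot be separated.

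The tropomyosins are coiled coils that cover the myosin-binding positions on actin, and *Tpm1* had the smallest standard error of the members (0.30). *Tpm1* read 7.04, 7.12 and 7.64 in the controls and 7.69, 7.72 and 8.02 in the Hsp47-deleted libraries. It was the only tested member whose groups did not overlap, although control replicate 2 and Hsp47-deleted replicate 1 were almost level. The difference was 0.54 (interval -0.15 to 1.24, adjusted p = 0.403 by limma, the smallest of the members). After each library was centred on its median, or after quantile normalization, the groups of *Tpm1* overlapped and no member had groups apart. *Tpm2* read 4.87, 4.50 and 6.08 in the controls and 6.13, 5.34 and 5.46 in the Hsp47-deleted libraries, with a difference of 0.49 (interval -0.57 to 1.56, adjusted p = 0.614 by limma). With 21 annotated transcripts, *Tpm1* also produces smooth muscle and other forms that a single value per gene does not separate.

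Of the myosin genes, *Myl9* gave the second largest difference. It read 2.90, 2.84 and 5.61 in the controls and 5.34, 5.21 and 4.66 in the Hsp47-deleted libraries. All libraries of the second run were above both of the first, and control replicate 2 was the highest. The difference was 1.29 (interval -0.37 to 2.95, adjusted p = 0.405 by limma). *Myh11*, the heavy chain of mature smooth muscle, was at 2.43, 1.73 and 3.52 in the controls and 3.26, 2.42 and 3.03 in the Hsp47-deleted libraries. Its groups overlapped, and the difference, which fell below 0 under both scalings named above, was 0.35 (interval -0.81 to 1.50, adjusted p = 0.753 by limma), close to the median difference of all tested genes.

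The controls of the 2 runs differed more for these genes than the labelled groups did. Control replicate 2 lay above both other controls for 8 of the 9 tested members (all but *Cald1*), against 46.4% of all tested genes. Its median excess over the mean of control replicates 3 and 4 was 1.44 for the members and 0.11 for all tested genes. A fit with sequencing run as a covariate gave a run term that rests on control replicate 2 alone against the controls of the first run. Its spread comes from the controls of the first run and from the Hsp47-deleted libraries, moderated by limma over all genes. The run term passed the threshold for 3 of the 9 members, against 3.94% of all tested genes. These were *Myl9* at 2.74 (adjusted p = 0.022), *Acta2* at 2.28 (adjusted p = 0.032) and *Tagln* at 2.12 (adjusted p = 0.037), by limma. *Cnn2* had a run term of the same size, 2.78, with a larger standard error of 0.84 (adjusted p = 0.103 by limma). This result was added after the data were seen.

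Within the second run the direction of most members turned. The mean of the Hsp47-deleted libraries lay below control replicate 2 for 7 of the 9 tested members, against 28.0% of all tested genes, and *Tpm1* and *Cald1* were the 2 above it. For 5 of the 9 (*Acta2*, *Tagln*, *Myl9*, *Actg2* and *Myh11*) control replicate 2 was above all 3 Hsp47-deleted libraries, against 11.7% of all tested genes. The differences were -0.88 for *Acta2*, -0.88 for *Tagln*, -0.87 for *Actg2*, -0.61 for *Myh11*, -0.54 for *Myl9*, -0.50 for *Cnn2* and -0.44 for *Tpm2*, and 0.17 for *Tpm1* and 0.48 for *Cald1*. For the untested *Cnn1* the difference was -0.69. The median was -0.54 for the members and 0.29 for all tested genes. With run as a covariate the unadjusted p was 0.049 for *Acta2* and 0.048 for *Tagln*, 2 of 9 against 6.73% of all tested genes, and no member was called (adjusted p = 0.732 for both, limma), where 0.331% of all tested genes were. A single control stands for the run in these values, so they have no replicate of their own on the control side.

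Without control replicate 2 the groups and the runs are the same split and cannot be told apart. The Hsp47-deleted libraries then lay above both controls for 6 of the 9 members, against 41.4% of all tested genes. *Acta2* (1.40, adjusted p = 0.022), *Tagln* (1.24, adjusted p = 0.031), *Cnn2* (2.28, adjusted p = 0.047) and *Myl9* (2.20, adjusted p = 0.0071) were called by limma. These were 4 of the 9 members, where 2768 of all 15109 tested genes were called. The result for these 4 genes therefore depended on a single library.

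**Figure D2:**
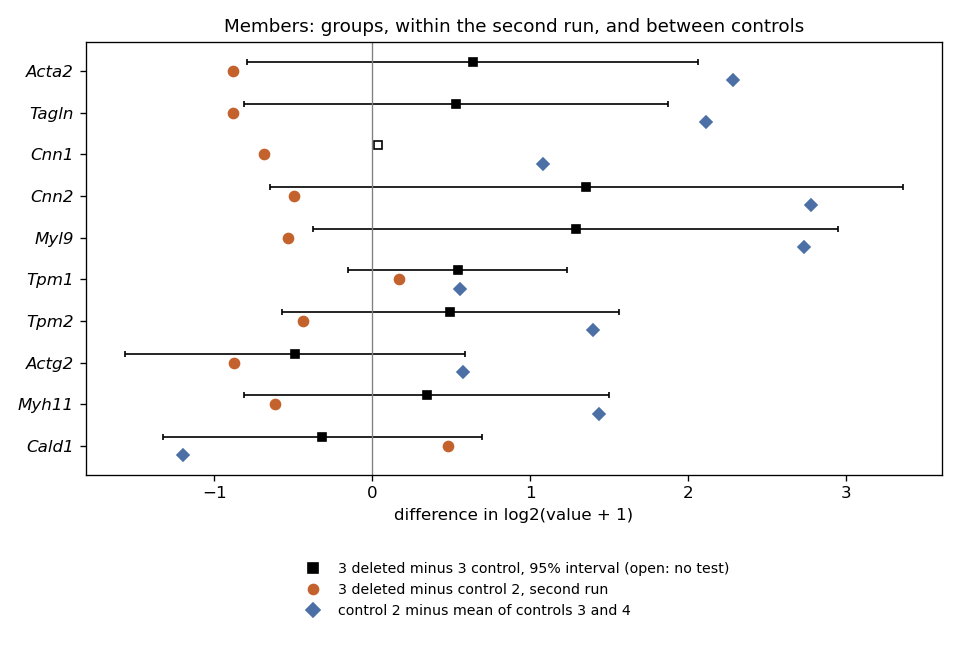
Differences in log2(value + 1) for each member: squares, 3 Hsp47-deleted minus 3 control libraries with the 95% interval from limma (open for *Cnn1*, which was not tested); circles, the Hsp47-deleted mean minus control replicate 2 within the second run; diamonds, control replicate 2 minus the mean of control replicates 3 and 4. All intervals include 0, and for 8 of the 10 members the circle lies below 0.

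All members but *Cald1*, for which no relative was listed, were also set against a nonmuscle relative within the same library. A scaling shared by both genes of a pair cancels in this difference at high levels, but only in part for low genes, because of the pseudocount of 1. With 3 libraries against 3 the exact permutation test cannot give a two-sided p under 0.10. Of 9 pairs, 3 had groups that did not overlap, and in all 3 the difference of member and relative was lower in the Hsp47-deleted libraries. *Tagln* minus *Tagln2*, the nonmuscle transgelin, was -3.76, -4.05 and -3.28 in the controls and -4.79, -4.74 and -4.59 in the Hsp47-deleted libraries, a difference of -1.01 (exact permutation p = 0.10, adjusted over the 9 pairs 0.30). *Actg2* minus *Actg1*, the cytoplasmic γ-actin, was -7.02, -6.93 and -7.23 against -7.55, -8.46 and -8.60, a difference of -1.14 with the same exact p. *Cnn1* minus *Cnn3*, the acidic calponin, was -5.15, -4.71 and -4.53 against -5.53, -5.63 and -5.34, a difference of -0.70, again at the exact p of 0.10, with *Cnn1* near the floor of the scale. Within the second run these 3 differences were -1.43, -0.97 and -0.97. With pseudocounts of 0.1 and 5 they kept their sign, at -0.97 and -1.13 for *Tagln* minus *Tagln2*, -1.46 and -0.84 for *Actg2* minus *Actg1* and -0.53 and -0.70 for *Cnn1* minus *Cnn3*. The relative *Tagln2* itself read 7.85 ± 0.87 in control and 9.39 ± 0.14 in Hsp47-deleted (SD, n = 3 each) without overlap, with a limma difference of 1.54 (adjusted p = 0.277). *Cnn3* was also higher without overlap, by 0.74 (adjusted p = 0.323 by limma), where the means of *Cnn1* were 0.89 and 0.92. *Actg1* was 0.65 higher, with overlap (adjusted p = 0.445 by limma). The lower differences of these pairs thus include higher values of the relatives. The share of other gene pairs without overlap was not computed.

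In the other 6 pairs the groups overlapped. The differences were 0.17 for *Acta2* minus *Actb* (exact permutation p = 0.60), 0.06 for *Myl9* minus *Myl12a* (exact permutation p = 0.90), 0.19 for *Tpm1* minus *Tpm3* (exact permutation p = 0.50) and -0.09 for *Myh11* minus *Myh9* (exact permutation p = 1). They were 0.71 for *Tpm2* minus *Tpm4* (exact permutation p = 0.40) and 0.62 for *Cnn2* minus *Cnn3* (exact permutation p = 0.70). The last was 0.20 with a pseudocount of 5, and *Myl9* minus *Myl12a* was then -0.22. The run term of *Actb*, cytoplasmic β-actin, was 1.78 (adjusted p = 0.063 by limma), against 2.28 for *Acta2*. Within the second run all 6 differences were below 0, from -1.02 for *Myh11* minus *Myh9* to -0.14 for *Tpm1* minus *Tpm3*. Coding identity was 83.3% between *Acta2* and *Actb*, 84.4% between *Acta2* and *Actg2*, 85.7% between *Myl9* and *Myl12a*, 75.5% between *Tpm1* and *Tpm2*, 75.3% between *Myh11* and *Myh9*, 70.7% between *Tagln* and *Tagln2* and 68.2% between *Cnn1* and *Cnn2*. At 31 bases, however, at most 1.39% of the words of any member other than *Tagln* occurred in another gene.

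**Figure D3:**
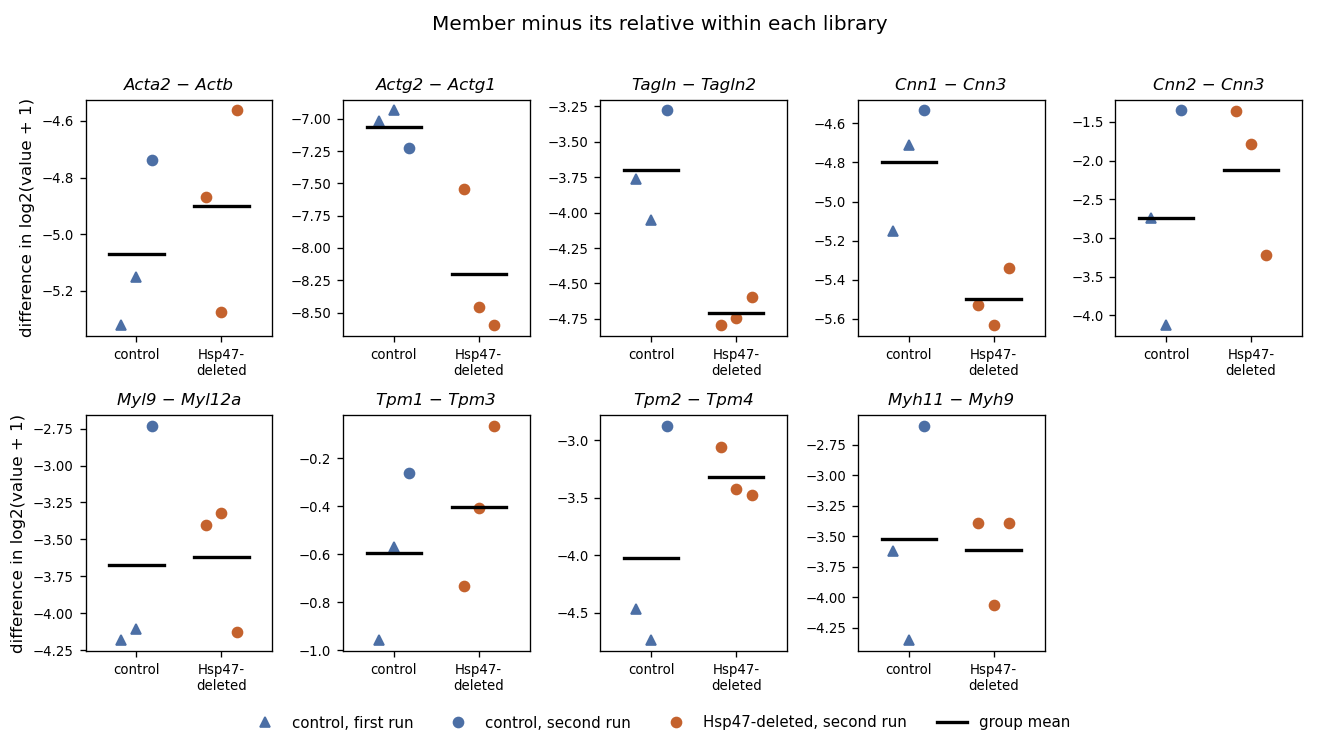
Log2(value + 1) of a member minus that of its relative within each library, with triangles for the first sequencing run, circles for the second and bars for the group means (n = 3). The groups do not overlap for *Actg2* minus *Actg1*, *Tagln* minus *Tagln2* and *Cnn1* minus *Cnn3*, and the vertical scale differs between panels.

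Of 15 other smooth muscle contractile and cytoskeletal genes tested, 12 had a difference above 0, against 74.5% of all tested genes, and none was called. At an unadjusted p under 0.05, 2 were higher, against 14.5% of all. Without overlap 2 were higher, against 18.3% of all, and 1, *Kcnmb1*, was lower, against 226 of all 15109 tested genes. The 2 higher genes were *Smtn*, which encodes the actin-binding smoothelin (1.05, adjusted p = 0.259), and *Mustn1* (0.97, adjusted p = 0.296), both by limma. Control replicate 2 lay above both other controls for 13 of the 15, and above the mean of the Hsp47-deleted libraries for 11 of the 15, against 46.4% and 28.0% of all tested genes. The median of these genes was 0.26 in the pooled comparison and -0.28 within the second run, against 0.35 and 0.29 over all tested genes. *Des*, which encodes the intermediate filament protein desmin, read 1.55 ± 1.24 in control and 2.71 ± 0.45 in Hsp47-deleted (SD, n = 3 each), with overlap.

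Of 16 genes that control myosin phosphorylation, 3 were higher at an unadjusted p under 0.05, against 14.5% of all tested genes, and none was lower. None was called, and the median was 0.14, against 0.35 over all tested genes. *Mylk*, which encodes the kinase that phosphorylates the regulatory light chain, read 2.00 ± 0.42 in control and 1.95 ± 0.52 in Hsp47-deleted (SD, n = 3 each). The 2 genes with the smallest p were *Ppp1r12c*, a regulatory subunit of myosin phosphatase (0.97, adjusted p = 0.274), and *Arhgef1*, an exchange factor that activates RhoA (1.58, adjusted p = 0.283), by limma.

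Of 14 tested regulators of the program, SRF and its cofactors among them, 8 were higher without overlap, beside 1 of the 9 members and the 18.3% of all genes given above. The difference between these lists was not tested. *Srf* read 2.61 ± 0.52 in control and 3.42 ± 0.04 in Hsp47-deleted (SD, n = 3 each), a difference of 0.81 (adjusted p = 0.330 by limma). *Mkl1*, also named *Mrtfa*, the actin-sensing cofactor of SRF, was 1.11 higher (adjusted p = 0.263 by limma), and *Klf4*, a repressor of smooth muscle genes, was 1.57 higher (adjusted p = 0.274 by limma). No regulator was called, and 4 of the 14 were higher at an unadjusted p under 0.05, against 14.5% of all tested genes. Their median was 0.71 pooled, against 0.35 over all tested genes. Within the second run it was 0.26, a little under the 0.29 of all tested genes. *Myocd*, the cofactor specific to cardiac and smooth muscle, read 1.30 ± 0.76 and 1.60 ± 0.36 (SD, n = 3 each), with overlap.

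Stress fiber genes crosslink and anchor the actin bundles of nonmuscle cells. Of 15 tested, 14 had a difference above 0 and 8 were higher without overlap, 6 were higher at an unadjusted p under 0.05 and none was called. The shares over all tested genes were 74.5%, 18.3% and 14.5% for the first 3 counts. *Actn4*, an α-actinin, was 1.12 higher (adjusted p = 0.251) and *Palld*, the palladin gene, 1.11 higher (adjusted p = 0.276), by limma, and within the second run the 2 differences were 1.06 and 1.04. The median was 0.78 pooled and 0.41 within the second run, against 0.35 and 0.29 over all tested genes. That of the members was below 0 within the second run. Of 15 tested nonmuscle and striated relatives 5 were higher without overlap, against 18.3% of all tested genes. Their median was 0.53 pooled, above the 0.35 of all tested genes. Within the second run it was 0.13, under the 0.29 of all tested genes. *Tagln2* and *Myl12b*, a nonmuscle regulatory light chain (1.64, adjusted p = 0.283 by limma), had the smallest p of the relatives.

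**Figure D4:**
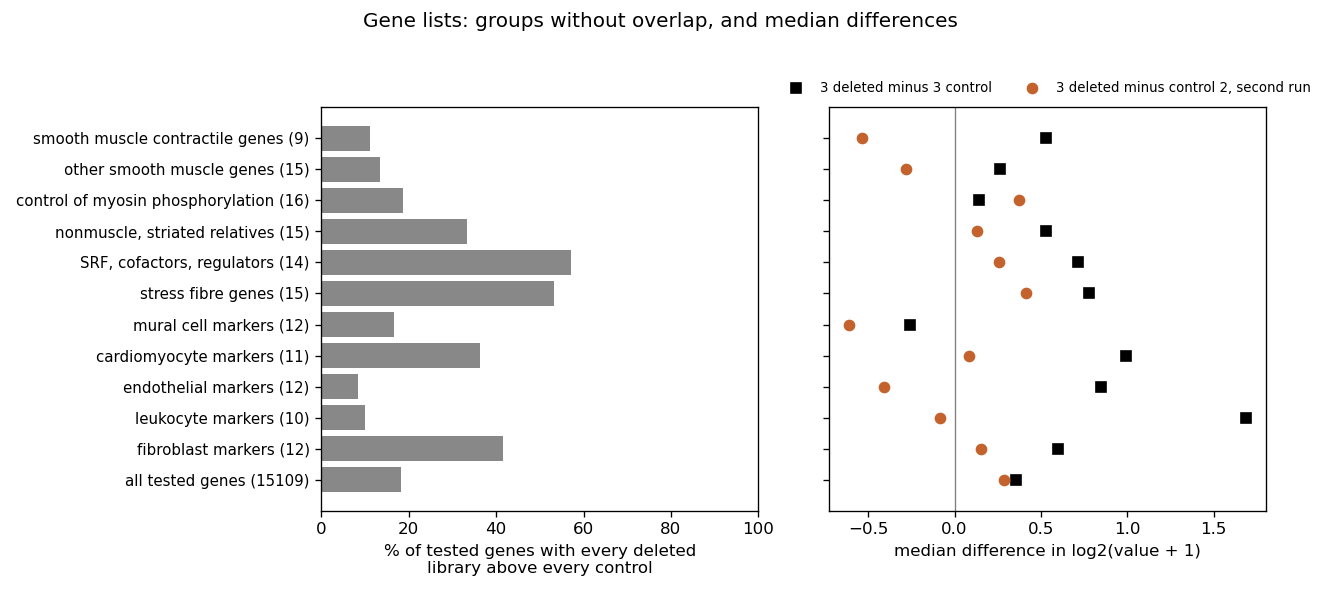
Left, the share of the tested genes of each list, in percent, with all Hsp47-deleted libraries above all controls; right, the median difference of each list over all libraries (squares) and within the second run (circles), in log2 units. The number of tested genes stands beside each list, and the members had a median of 0.53 over all libraries and -0.54 within the second run.

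Markers of other cells that carry the same genes were read beside these results. Mural cells, the pericytes and smooth muscle cells of vessels, express many of the members. All 12 mural markers were above 0 in at least 1 library, and the controls had summed linear levels of 211 to 343 and the Hsp47-deleted libraries of 197 to 302. A single gene, *Rgs5*, gave 139 to 253 of these sums in the controls and 86.8 to 139 in the Hsp47-deleted libraries. *Rgs5*, the pericyte marker with the highest values of the list, was 7.52 ± 0.44 in control and 6.87 ± 0.36 in Hsp47-deleted (SD, n = 3 each), lower without overlap (adjusted p = 0.390 by limma). *Pdgfrb* (1.49, adjusted p = 0.283) and *Mcam* (1.03, adjusted p = 0.297) had the smallest p of the list and were higher without overlap (limma). Over the list 5 of the 12 had a difference above 0, against 74.5% of all tested genes, and 7 had one below 0. Without overlap 2 were higher, against 18.3% of all tested genes, and 2 were lower, against 226 of all 15109. The median of the list was -0.26 pooled and -0.61 within the second run, against 0.35 and 0.29 over all tested genes. For 8 of the 12 mural markers control replicate 2 was above all 3 Hsp47-deleted libraries, against 11.7% of all tested genes. The part of mural cells in the levels of the members was not tested.

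Markers of cardiomyocytes, endothelial cells and leukocytes, like the members, differed between the controls. Control replicate 2 was above control replicates 3 and 4 for 9 of 11 cardiomyocyte, 10 of 12 endothelial and 8 of 10 leukocyte markers, against 46.4% of all tested genes. The summed linear level of the cardiomyocyte markers was 83.9 and 56.0 in control replicates 3 and 4, 278 in control replicate 2, and from 176 to 289 in the Hsp47-deleted libraries. Sums of the endothelial markers were 278, 140 and 747 against 375 to 767. Of these, *Fabp4* alone gave 92.5, 12.5 and 384 in the controls and 121 to 357 in the Hsp47-deleted libraries. Sums of the leukocyte markers were 43.8, 83.6 and 169 against 166 to 203, with *Ptprc* at 0 in every library. The genes with the smallest p were *Ckm* (1.42) and *Ttn* (1.70) among cardiomyocyte, *Cldn5* (2.13) and *Eng* (1.36) among endothelial and *Laptm5* (2.23) and *Cd52* (2.67) among leukocyte markers, none of them called (limma, adjusted p from 0.224 to 0.318). The part of these cells in the results for the members was not tested.

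Fibroblast markers were high in every library, and their summed linear level was 11060 to 17477 over the controls and 18620 to 22869 over the Hsp47-deleted libraries, without overlap. *Postn*, the matricellular gene whose locus carries the Cre, was called, at 5.95 ± 0.15 in control and 10.36 ± 0.14 in Hsp47-deleted (SD, n = 3 each), a difference of 4.41 (adjusted p = 0.0034 by limma) and of 4.24 within the second run. *Tcf21*, a factor of resident fibroblasts, was 2.09 higher (adjusted p = 0.187 by limma). Its difference was larger than that of any member.

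By the likeness of their values over the 6 libraries, the gene closest to *Acta2* among 9746 genes was *Tagln*, with a root mean square difference of 0.16 log2 units after each gene was centred on its own mean. The next 4 were *Gpx7*, *Osr1*, *Ndufa11* and *Atp5h*, at 0.17 to 0.19, of which *Gpx7* encodes an endoplasmic reticulum peroxidase, *Osr1* a transcription factor and the others subunits of the respiratory chain or ATP synthase. Each of the 5 was lowest in control replicate 4 and highest in control replicate 2. Of the other members that met the minimum level, *Tpm2* ranked 108, *Myh11* 260, *Myl9* 411, *Tpm1* 2326, *Cnn2* 2986 and *Cald1* 8288 in likeness to *Acta2*. So the members did not follow a single pattern across the libraries.

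Transcript length moved with the difference between the runs. The median excess of control replicate 2 over the other controls was 0.32, 0.26, 0.10 and -0.09 in 4 groups of like size, from short to long, into which 14783 genes were divided by their longest annotated transcript. The difference between the groups was 0.51, 0.41, 0.32 and 0.27 over the same 4 groups. Among the members, the longest transcripts of *Myl9*, *Actg2* and *Tagln* have 1128, 1333 and 1595 bases, and their excess in control replicate 2 was 2.74, 0.58 and 2.12. Those of *Cald1* and *Myh11* have 4777 and 6549 bases, with an excess of -1.20 and 1.44 (adjusted p = 0.144 for both run terms by limma). The part of length in the members' values was not tested.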

How the data were processed

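RNA-seq was analysed in 6 libraries of sorted EGFP+ cells, 3 labelled control and 3 labelled Hsp47-deleted. The authors deposited log2(value + 1) for 28987 genes, 1 value per gene and library, with group means and their own comparison (fold, p-values and adjusted p-values), which were not used. The submitters' processing notes name kallisto and mm10, with no role or version, and the paper names AltAnalyze. The linear unit is not named, the values are not counts, and the depth and its precision are unknown. All 6 library columns were matched to the labels, and 0 further per-sample columns were present. No pair of libraries shared an identical value above 0, so none was merged.

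The deposited log2 values, which carry a pseudocount of 1, were used as they stand. Genes with a linear mean of at least 1 over all libraries were kept (15109, with 13878 left out) and compared in R 4.3.3 by limma 3.58.1, two-sided and with no covariate (lmFit, eBayes with a mean-variance trend, BH over all tested genes). Groups were apart where every library of one lay above every library of the other. Member and relative were compared by an exact permutation test over 9 pairs. The scripts were tested on simulated data. Positions, lengths and 31-base words came from GENCODE M21 transcripts, coding identity from pairwise alignment (Biopython 1.88), and promoters from RefSeq, searched in Python 3.11.15. Whether the authors' annotation was the same is not given in the sources used here.

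The text names all 10 members, *Serpinh1*, the relatives, the 2 genes with the smallest p of each other list and any called gene of it, and the 5 genes most like *Acta2* (linear mean of at least 5). *Srf*, *Myocd*, *Mylk*, *Des*, *Kcnmb1*, *Rgs5*, *Fabp4* and *Ptprc* were named after their values were seen. Members and lists were chosen with earlier results of these data known. Alternatives were sequencing run as a covariate, the second run alone, a replicate block, pseudocounts of 0.1 and 5, no filter or a minimum mean of 5, centring each library on its median, quantile normalization, no trend, robust estimation (statmod 1.5.0) and leaving out each library. The run term and the count of groups apart without control replicate 2 were added after the data were seen.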

Additional observations from a re-analysis of the deposited data

How the results depend on the processing

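Over all genes 37 were called, and the count was 13 with no filter, 16 with a pseudocount of 0.1, 17 after quantile normalization, 18 after centring on the median and from 8 to 2768 when each library was left out in turn, the highest without control replicate 2. No member was called under any of these settings, nor with run as a covariate, except for 4 without control replicate 2 (range 0 to 4). The count of members with groups apart was 1, and 0 after quantile normalization or centring. It was 7 without control replicate 2, of which *Cald1* was lower and 6 were higher, against 41.4% of all tested genes that were higher. The median of the members less that of all tested genes was 0.18 (-0.22 to 0.56 when each library was left out). It reversed to -0.82 with run as a covariate and in the second run alone. By the design these 2 settings are a single contrast, of the Hsp47-deleted libraries with control replicate 2.

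With run as a covariate, and equally in the second run alone, the differences reversed to -0.88 for *Acta2*, -0.88 for *Tagln*, -0.50 for *Cnn2*, -0.54 for *Myl9*, -0.44 for *Tpm2*, -0.61 for *Myh11* and 0.48 for *Cald1*. *Myh11* also reversed after quantile normalization (-0.091) and centring (-0.070), and ranged from -0.071 to 0.82 when each library was left out. Of the pairs, use of the second run alone reversed *Acta2* minus *Actb* (-0.16), *Cnn2* minus *Cnn3* (-0.77), *Myl9* minus *Myl12a* (-0.89), *Tpm1* minus *Tpm3* (-0.14) and *Tpm2* minus *Tpm4* (-0.45), and a pseudocount of 5 reversed *Myl9* minus *Myl12a* (-0.22). Leaving out each library gave -0.0014 to 0.36 for *Acta2* minus *Actb*, -0.074 to 1.32 for *Cnn2* minus *Cnn3*, -0.20 to 0.53 for *Myl9* minus *Myl12a* and -0.51 to 0.37 for *Myh11* minus *Myh9*. The cause of these changes was not tested. In all, for single members and pairs, 192 values stayed the same, 33 reversed, 4 passed the threshold and 4 moved without reversal. A member stayed the same where it kept its direction and its side of the threshold, so a difference that shrank almost to 0 is counted there too. For members, run as a covariate and the second run alone were counted separately, although they are a single contrast. The tally therefore does not measure how stable the sizes were. Pairs, and members in the second run alone, stayed the same where they kept their direction and changed by less than the pooled SD between libraries.

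The replicate numbers 2 and 3 occur in both groups, but nothing in the labels says that a number pairs libraries, and the deviations of same-numbered libraries correlated at 0.16 and 0.23 across genes. With the replicate number as a replicate block 0 genes were called, and *Tpm2* (-0.076) and *Myh11* (-0.25) reversed. The differences of *Acta2* and *Tagln* were 0.0032 and 0.0027. The median of the members less that of all tested genes turned to -0.41, which is within 1 SD between libraries of its first value. Control replicate 4 and Hsp47-deleted replicate 1 have no library of the same number in the other group. The group difference of this fit thus rests on replicates 2 and 3 alone, and few residual degrees of freedom remain. The unknown depth leaves the precision of low members such as *Cnn1* and *Actg2* unstated.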
